A study of Mus musculus with 21 samples.

Results

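The data describe the transcripts of mouse chromosome 13 in 13 liver tumours and 8 tumour-free livers, and how their levels shifted along the chromosome in each tumour. The set was chosen by position and signal. It holds every non-control probe of the array whose coordinate in the array files (build mm9) lies on chromosome 13 and that 4 or more of the 21 arrays read well above background. Of 1543 probes on the chromosome, 1145 met this rule, out of 30397 probes on the whole array that did, and they carried 897 gene names. On all 21 arrays 663 of them were well above background. Of the probes left out, 162 were above background on no array and 236 on 1 to 3 arrays. The 29 probes at the limit, above background on exactly 4 arrays, had a median log2 level of -6.56, and the 54 probes just outside it, on exactly 3 arrays, a median of -6.89.

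All mice were of the C57BL/6J background. The DEN tumours (7 tumours of 5 mice) were hepatocellular carcinomas of mice with intact Trp53 that received N-nitrosodiethylamine, a liver carcinogen, injected into the peritoneum at day 15 (10 µg per g of body weight). The KO tumours (6 tumours of 5 mice) came from untreated Trp53 knockout mice and are labelled HCC/CCC. The KO livers (4 mice) were livers of untreated Trp53 knockout mice, and the WT livers (4 mice) those of untreated mice with intact Trp53. The sources used here do not give ages, sexes, the deleted exons of Trp53 or the cells in which it was deleted. RNA was read on one-colour arrays, 1 per sample. Levels are log2 intensities with each array's 75th percentile subtracted, so a level of 0 is that percentile and a difference of 1 is a doubling.

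In tumours, gains and losses of chromosome segments change the number of copies of neighbouring genes, and the RNA of such genes can shift together. RNA levels alone do not count copies, because the cell types in a sample and regulation of a gene cluster also move neighbouring genes. Mouse chromosome 13 holds the large cluster of replication-dependent histone genes, the aldo-keto reductase 1C cluster, a cluster of serpin B protease inhibitors and liver enzymes of sterol, betaine and glucose metabolism.

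The 60-base probes are what the arrays measured, so 30 bases are shown for those whose signals carry the results below, 5′ to 3′ as in the array files. The capitals mark AATAAA, the usual polyadenylation signal. It was present as written in 11.0% of the chromosome 13 probes and 13.4% of all probes kept, and on the opposite strand in 3.41% and 3.99%.
Ninj1, chr13:49291553-49291612, plus strand: atcaggaacgacAATAAAgcttatgtgctt
Tmed9, chr13:55698948-55699007, plus strand: ggttggaaacagagcctacagagtcttagt
Serpinb6a: tggcaattatgaAATAAAgggctttatggc
Serpinb1a: attttcttcattcggcacaatcccacatct
Syk: tttcagaaattattttaAATAAAgatctac
Akr1c18, chr13:4131895-4131954, minus strand: cccagttaattcAATAAAttttgcttcttt
Bhmt, chr13:94386856-94386915, minus strand: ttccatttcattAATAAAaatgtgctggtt
Idi1, chr13:8891524-8891583, plus strand: ctaatttcttgctaactctgaacagttgat
The first 5 belong to genes of the stretch that was lowest in KO tumour 4, and the others to metabolic genes described below. No match says only that these letters are not in the window that was searched.

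The arrays differed in brightness and scan day. Arrays of DEN tumours and livers had a 75th percentile intensity of 475.8 to 883.97, and those of KO tumours one of 951 to 4257.5. The brightest 3 arrays were KO tumours 4, 5 and 6, which shared 1 slide and 1 scan day. DEN tumours 2, 3, 4 and 6 were scanned on another day than DEN tumours 1, 5 and 7. Each of the 6 slides held a single group. Trp53 itself had levels of -6.47 to -4.91 in KO livers (above background on 1 of 4 arrays), -5.35 to -3.77 in KO tumours (5 of 6), -3.85 to -3.31 in WT livers, and -3.10 to -2.19 in DEN tumours. KO tumours overlapped with WT livers by their highest value, and the other knockout and wild-type ranges were apart. All 7 hepatocyte markers were well above background on every array, with a mean log2 level of 5.79 to 6.89 in DEN tumours, 6.86 to 7.38 in livers and 1.09 to 4.27 in KO tumours. Bile duct markers had mean levels of 0.35 to 3.29 in KO tumours, -2.20 to 0.10 in DEN tumours and -3.41 to -1.77 in livers. Y-linked transcripts were above background on all arrays except those of KO tumours 1 and 2 (0 of 3 transcripts) and KO tumour 4 (2 of 3).

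The regional shift of a tumour is the median, over the probes of a 10 Mb window, of the log2 difference from the mean of the 8 livers, centred on the tumour's median over all autosomes. These medians are the values that defined the set and are given as a description. In 13 tumours with 13 windows each, 18.3% of the chromosome 13 windows lay 0.3 or more below the livers and 7.10% lay 0.3 or more above, against 9.02% and 9.36% of all autosomal windows. The shares on chromosome 13 were 3.55% and 0.592% with normexp and quantile scaling, and 30.2% were lower without centring. In livers, each set against the other livers, 2.02% of all autosomal windows were as far away in either direction. In KO tumours 22 of 78 chromosome 13 windows were lower by 0.3 or more and 9 higher, against 13.5% and 12.5% of their autosomal windows. In DEN tumours 9 of 91 were lower and 3 higher, against 5.23% and 6.69%. All 9 lower windows of DEN tumours were in DEN tumours 2, 3, 4 and 6, the tumours of the first scan day. The same 4 tumours had 12.99% to 20.1% of all their autosomal windows past 0.3 in either direction, and the 3 DEN tumours of the other day 2.76% to 8.66%. The part of the scan day in these shifts was not tested.

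Several windows lay on the same side of the livers in tumours of both kinds. From 0 to 10 Mb, which holds the aldo-keto reductase cluster, the window median was below 0 in 13 of 13 tumours (lowest -0.58, median -0.13, highest -0.05). From 60 to 70 Mb, the window of the gluconeogenic enzyme Fbp1 and the lysosomal protease Ctsl, it was also below 0 in 13 of 13 (-0.55, -0.32 and -0.03). From 80 to 90 Mb it was -0.76 to -0.22 in KO tumours and -0.33 to -0.06 in DEN tumours, again below 0 in all. From 10 to 20 Mb it was above 0 in 13 of 13 tumours (0.03 to 0.64), and from 110 to 120 Mb in 12 of 13, with DEN tumour 4 at -0.03 and KO tumour 6 highest at 0.78. The last window, of 13 probes up to the end of the members at 120284312, ranged most widely, from -1.11 in KO tumour 4 to 0.45 in DEN tumour 1. All tumours were set against the same 8 livers, so windows that agree between tumours are not independent of each other.

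**Figure D1:**
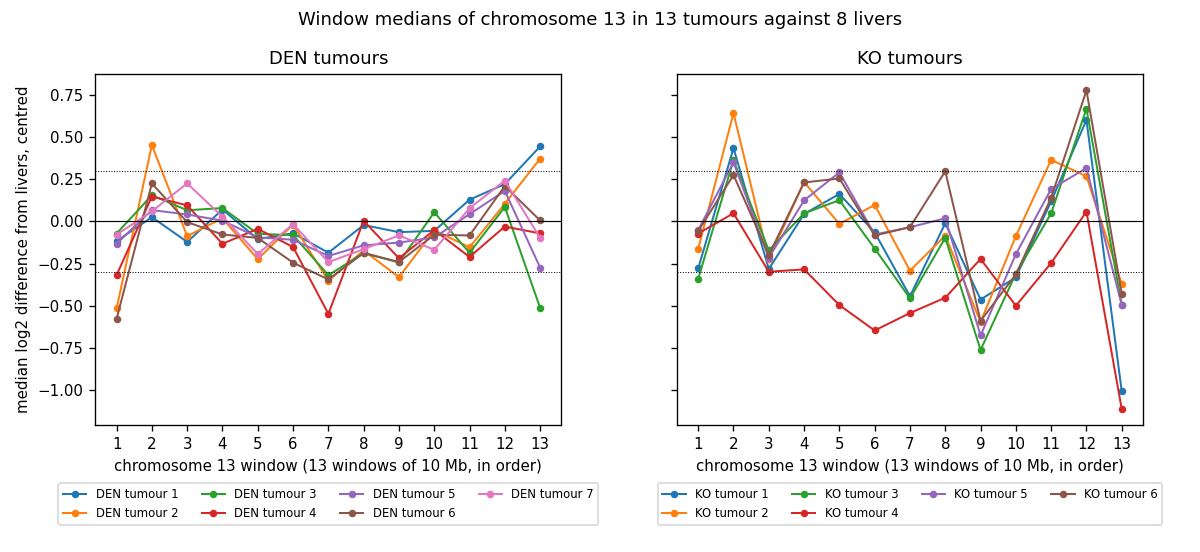
Median log2 difference of each tumour from the 8 livers (vertical axis, centred on the autosomal median) in 13 consecutive 10 Mb windows of chromosome 13 (horizontal axis), 1 line per tumour, with dotted lines at -0.3 and 0.3. KO tumour 4 runs below the other 5 KO tumours from window 4 to window 8, down to -0.65, while the DEN tumours stay closer together.

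KO tumour 4, the 1 tumour of KO tumour mouse 4, stood apart from the other KO tumours along most of chromosome 13. Set against the mean of the KO tumours of other mice, its median over the 1136 measured chromosome 13 probes was -0.39, with 67.0% of the probes below 0. The other KO tumours, each set against those of other mice, had medians of 0.03, 0.09, -0.04, 0.19 and 0.18, and the 7 DEN tumours, against DEN tumours of other mice, -0.03 to 0.04. In KO tumour 4 chromosome 13 was the lowest of 19 autosomes, and the next lowest was chromosome 12 at -0.19. Against livers it was -0.34 (6 windows 0.3 or more lower and 0 higher, with 11% and 10.2% of its autosomal windows), second to chromosome 9 at -0.35. A low rank against livers was not particular to KO tumour 4. Chromosome 13 was lowest of 19 in DEN tumours 3, 4, 6 and 7, at -0.08, -0.12, -0.10 and -0.05. It was second lowest in DEN tumours 2 and 5 and KO tumour 3, at -0.11, -0.06 and -0.15. In DEN tumour 1 it ranked 3 from the lowest, and in KO tumours 1, 2, 5 and 6 it ranked 5, 11, 8 and 11. KO tumour 4 had the lowest of the 6 KO tumour levels at 365 of 1131 chromosome 13 probes, or 32.3%, against 17.4% of autosomal probes. No test stands beside these values, since they are those that brought the region forward. The array of KO tumour 4 had 54.4% of its probes well above background, and those of the other KO tumours 61.8% to 76.5%. The part of this difference in the chromosome 13 values was not tested.

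**Figure D2:**
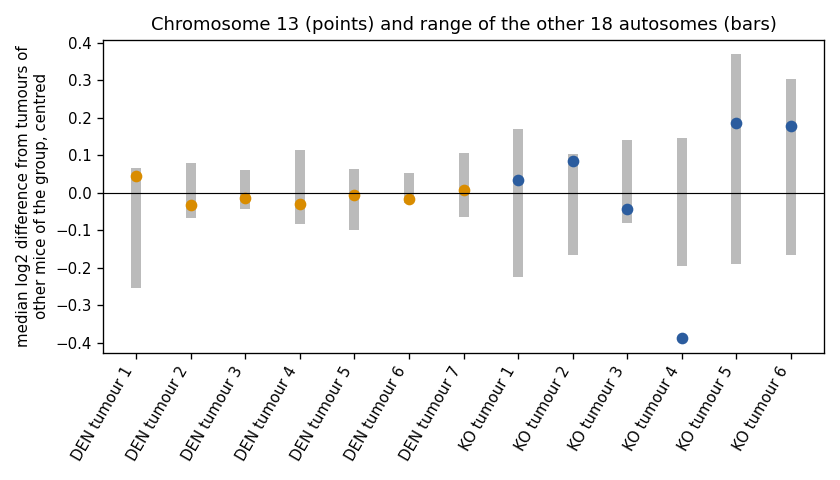
Median log2 difference of each tumour from the tumours of other mice of its group (vertical axis, centred), for chromosome 13 (points) and for the range of the other 18 autosomes (grey bars). The point of KO tumour 4, at -0.39, lies below its bar, whose lower end is -0.19.

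The shift of KO tumour 4 was not even along the chromosome. In all, 8 windows were 0.3 or more below the other KO tumours and 0 were above, against 6.3% and 6.3% of its autosomal windows. Most of them were lost with normexp and quantile scaling, under which 0.592% of the chromosome 13 windows of all 13 tumours were 0.3 or more below their group. Without that scaling, over all 13 tumours, each against other mice of its group, 7.69% of chromosome 13 windows were lower and 4.14% higher, against 2.57% and 2.76% of autosomal windows. Of the 8 windows of KO tumour 4, 6 formed 2 runs of adjacent windows. From 30 to 60 Mb the window medians were -0.52, -0.61 and -0.55, and over its 345 probes, of 266 genes, the median was -0.55 with 264 probes below 0 and 81 above. From 100 to 130 Mb they were -0.42, -0.40 and -0.39, and over 172 probes the median was -0.41. The window from 10 to 20 Mb gave -0.61 and that from 70 to 80 Mb -0.44. Just short of 0.3 were the windows from 20 to 30 Mb at -0.28 and from 90 to 100 Mb at -0.27. The first window, from 0 to 10 Mb, lay the other way at 0.24, and so did that from 80 to 90 Mb at 0.15. From 0 to 10 Mb KO tumours 5 and 6, of the same slide, were also above 0, at 0.30 and 0.26. KO tumours 1, 2 and 3, of the other slide, were at -0.17, -0.19 and -0.21.

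**Figure D3:**
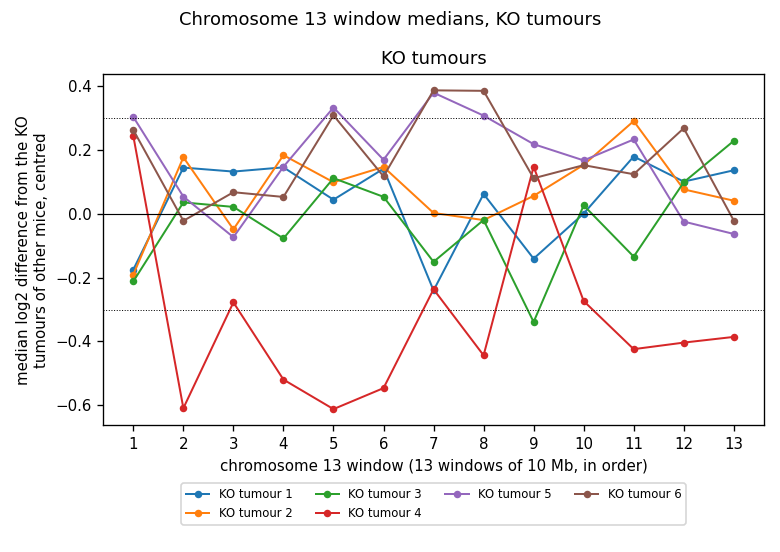
Median log2 difference of each KO tumour from the KO tumours of other mice (vertical axis, centred) in the 13 windows of chromosome 13 (horizontal axis), with dotted lines at -0.3 and 0.3. KO tumour 4 is below -0.3 in 8 windows and above 0 in the first and the ninth, and KO tumours 5 and 6, of 1 mouse, run close together.

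The low values of KO tumour 4 stood when its reference was changed. Against KO tumours 5 and 6 alone, which shared its slide and scan day, the chromosome 13 median was -0.40, second lowest after chromosome 12 at -0.42. Against KO tumours 1, 2 and 3, of the other slide, it was -0.32 and the lowest of 19. In probes of low, middle and high GC content the chromosome 13 median less the autosomal one was -0.40, -0.40 and -0.43, and in probes of low, middle and high level -0.23, -0.38 and -0.42. Of 190 genes with several probes, 115 had all of them below 0, 23 had all above 0 and 52 had probes on both sides. With normexp background correction and quantile scaling the median shrank to -0.14, still the lowest of 19 autosomes. The cell-type markers also differed in this tumour. Its mean bile duct marker level was 0.35, against 1.64 to 3.29 in the other KO tumours, its stellate cell and fibroblast level 3.19 against 3.69 to 4.96, its macrophage level 1.11 against 1.40 to 4.87, and its hepatocyte level 4.21 against 1.09 to 4.27. Summed, its bile duct markers lay within the range of the others (7.03 against 5.62 to 7.94) and its hepatocyte markers above it (9.002 against 5.67 to 8.20, log2 of the sum). Their part in the chromosome 13 values was not tested, and in bulk tissue fewer cells of a type and less RNA per cell cannot be told apart.

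Among the 4 genes with the highest levels in the 30 to 60 Mb stretch, KO tumour 4 was lowest of all KO tumours for 2. These 4 were chosen by level, but within a stretch picked for its low values in this tumour. Low values there are thus no separate support. KO tumour 4 was lowest at 32.3% of all chromosome 13 probes and 17.4% of autosomal probes. Ninj1, a cell surface protein that ruptures the membrane of dying cells, had a level of 4.06 in KO tumour 4 and 4.23 to 5.16 in the other 5. Tmed9, a cargo receptor of the early secretory pathway, had 4.77 against 5.0004 to 5.74. The tubulin gene Tubb2a (4.19 against 3.88 to 5.25) and the fatty acid oxidation enzyme Eci2 (4.22 against 3.68 to 5.14) lay within the range of the others. In the stretch from 100 to 130 Mb the splicing regulator Srek1 went against the median, with 6.35 in KO tumour 4 and 4.17 to 5.78 elsewhere, and Naip5, Rpl34-ps2 and Mocs2 lay within the range of the other tumours.

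The serpin B cluster lies in the 30 to 40 Mb window, and its 4 listed and measured inhibitors were low in KO tumour 4. Serpinb1a, an inhibitor of neutrophil proteases, had levels of 7.47, 7.28, 6.70, 3.16, 4.93 and 3.98 in KO tumours 1 to 6. Serpinb6a, an inhibitor of serine proteases inside cells, was 4.91 in KO tumour 4 and 5.67 to 7.39 in the other 5. Serpinb9, the inhibitor of granzyme B, was 0.59 against 1.56 to 3.09, and Serpinb6b 0.78 against 1.43 to 3.42. KO tumour 4 lay below every other KO tumour for all 4, and also for Serpinb1c, which is not on the list (-1.55 against -0.32 to 1.15). Their window is part of the stretch picked for its low values in this tumour. KO tumour 4 was lowest at 32.3% of all chromosome 13 probes and 17.4% of autosomal probes.

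Of the 29 signalling and tumour-related genes, 15 were lowest in KO tumour 4, with a list median of -0.80 against the other KO tumours. KO tumour 4 was lowest at 32.3% of all chromosome 13 probes and 17.4% of autosomal probes. Syk, a kinase of immune receptor signalling, was 0.78 in KO tumour 4 and 2.41 to 3.79 in the other 5. Il6st, the shared receptor chain of the interleukin 6 family, was 0.35 against 1.69 to 2.27. Pik3r1, a regulatory subunit of phosphoinositide 3-kinase, was -1.87 against -1.36 to 0.68. Ripk1, a kinase of cell death signalling, was -1.44 against -0.70 to -0.06. The receptor tyrosine kinase gene Ntrk2 ran the other way, at 1.10 against -1.06 to -0.14. Of the 22 cell cycle, replication and repair genes, 11 were lowest in KO tumour 4 (list median -0.52). Among them were Cdk7, the kinase of the CDK-activating complex (-2.76 against -1.97 to -0.92), the growth arrest gene Gadd45g (2.17 against 2.86 to 3.91), and the checkpoint loader Rad17 (-0.09 against 0.26 to 0.62). The list medians stand beside a median of -0.39 for all chromosome 13 probes of this tumour.

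The aldo-keto reductase cluster, at the start of the chromosome, ran against the rest of it in KO tumour 4. These enzymes reduce steroids and other carbonyl compounds with NADPH. All 9 measured members were highest in KO tumour 4, with a median difference of 1.91 from the other KO tumours. KO tumour 4 was highest of the 6 at 17.3% of chromosome 13 probes and 27.7% of autosomal probes. Akr1c18, which inactivates progesterone, had levels of -4.04, -3.06, -3.29, 2.20, -2.10 and -2.25 in KO tumours 1 to 6, so that 1 tumour was high and 5 were not. The 3 enzymes of betaine and choline breakdown, in the 90 to 100 Mb window, were higher in KO tumour 4 than the mean of the others by 1.40 to 1.603. For 2 of them, Bhmt2 and Dmgdh, KO tumour 6 was slightly higher still. Of the 4 glucose and fructose enzymes 3 were below 0 (list median -0.54), and Hk3 and Pfkp were lowest in KO tumour 4. Fbp1 ran against them, with 5.30 in KO tumour 4 and 2.32 to 4.72 in the others. Replication-dependent histones had a list median of -0.34, with 25 of 33 below 0. Probes of histone genes of 1 type are near-identical in sequence and may share signal.

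**Figure D4:**
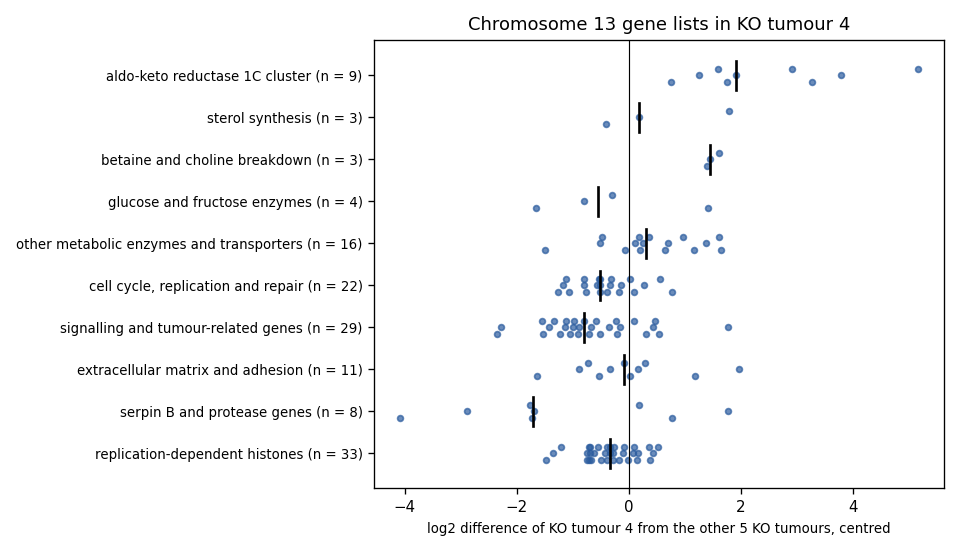
Log2 difference of KO tumour 4 from the mean of the other 5 KO tumours (horizontal axis, centred on the autosomal median) for the genes of 10 lists on chromosome 13 (1 point per gene, vertical bars at the list medians). The aldo-keto reductases lie to the right of 0 (9 of 9), and signalling, cell cycle and serpin B genes mostly to the left.

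KO tumours 5 and 6, both of KO tumour mouse 5, were higher than the KO tumours of other mice from 60 to 80 Mb, with medians of 0.33 and 0.39 over 231 and 232 probes. KO tumour 5 had 4 chromosome 13 windows 0.3 or more above its group and KO tumour 6 had 3, against 6.3% and 7.87% of their autosomal windows, and 1.97% and 2.36% lay as far below. Against livers KO tumour 5 had 2 windows lower and 2 higher (13.8% and 13.4% of its autosomal windows) and KO tumour 6 had 3 lower and 1 higher (13.8% and 11%), and the 60 to 80 Mb medians were -0.01 and 0.04. These shifts fell to 0.06 and 0.13 without the centring on autosomes and to 0.13 and 0.16 with normexp and quantile scaling, and in KO tumour 6 to 0.22 with centring within bins of probe GC content. In both tumours the autosomal medians ran with GC content. They were 0.31 and 0.29 in the probes of low GC content and -0.40 and -0.40 in those of high GC content. KO tumours 1 and 3 ran the other way, at -0.29 and -0.28 in probes of low and 0.36 and 0.29 in probes of high GC content. Each tumour was set against KO tumours of other mice, so these opposite trends are not independent. The leading genes of the stretch, chosen by level, did not run together. Fbp1 was 4.42 and 4.72 in KO tumours 5 and 6, within the 2.32 to 5.30 of the other 4, and Ctsl 5.44 and 5.56. Ndufs6, a gene of respiratory complex I, was lowest in both of them (4.36 and 4.498), and so was Gm7065 (4.56 and 4.43). The part of probe composition in these 2 shifts was not tested.

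KO tumours were next compared with DEN tumours gene by gene, to ask how chromosome 13 genes differed between tumours of knockout mice and carcinogen-induced tumours. This comparison uses the same tumour arrays as the regional shifts. Of 892 chromosome 13 genes tested, 143 (16.0%) were higher and 358 (40.1%) lower in KO tumours, against 19.9% and 37.5% of all 23526 genes, and the median log2 difference was -0.37 against -0.33 over all genes (limma, Benjamini-Hochberg adjusted p under 0.05). The chromosome as a whole thus changed in shares near those of the array. With normexp and quantile scaling the split was 187 higher and 264 lower, and the median over all genes was -0.03. The p-values measure the spread between mice. Each slide held a single group, with DEN tumours on slides 1 and 3 and KO tumours on slides 2 and 5. The spread between mice thus holds only part of the spread between slides, and the model counted mice of 1 slide as independent. With slide as a random block 87 were higher and 262 lower.

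The largest rises in KO tumours were those of Amph, Thbs4 and 2 serpins. Amph, a membrane-curving protein of endocytosis, had levels of 2.55, 2.84, 1.94, 0.44, 0.71 and -0.96 in KO tumours 1 to 6, and -8.03 to -5.13 in DEN tumours, where it was well above background on 1 of 7 arrays. The fitted difference was 8.94 ± 0.47 (SE; limma adjusted p 5.7e-09), of which the DEN side is mostly background signal, so its size is not a measured fold. Thbs4, an extracellular matrix protein of the thrombospondin family, ranged from -0.40 to 2.86 in KO tumours and from -8.16 to -3.48 in DEN tumours, a difference of 7.74 ± 0.57 (limma adjusted p 1.1e-07). Its DEN median of -7.36 was near that of Amph (-7.68), so this size is not a measured fold either. In livers Amph was above background on no array and Thbs4 on 1. Serpinb1a rose by 6.30 ± 0.91 (limma adjusted p 3.4e-05), and the other serpins Serpinb1c, Serpinb9, Serpinb6b and Serpinb6a by 5.75, 3.03, 2.43 and 2.34. In DEN tumours Serpinb1a ranged from -3.56 to 5.29, the top value that of DEN tumour 7, which overlaps with KO tumours by array though not by the means of mice. The other large rises were Mboat1, a lipid acyltransferase (4.43), the Wnt receptor Ror2 (4.39), the secreted Wnt antagonist Sfrp4 (4.08) and the kinase Wnk2 (3.67). Of these values normexp and quantile scaling shrank those of dim genes most. That of Amph fell to 4.79, Thbs4 to 4.05, Serpinb1c to 3.12, Ror2 to 1.54 and Sfrp4 to 1.73, and each of them still passed.

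The aldo-keto reductase cluster fell in KO tumours, with 7 of 9 measured members lower and 0 higher (median -2.15). Of all genes 37.5% were lower and 19.9% higher. Akr1c18 was 4.79 to 6.11 in the 7 DEN tumours and -4.04 to 2.20 in KO tumours, with no overlap. Livers were at -3.01 to -2.07. The difference of KO from DEN tumours was -7.59 ± 0.79 (limma adjusted p 2.1e-06), and that of KO tumours from KO livers 0.64 ± 0.84 (limma adjusted p 0.55). DEN tumours thus were the high group for Akr1c18, whereas for its neighbour Akr1c12 they were at the liver level (2.83 to 4.03 in DEN tumours, 3.11 to 3.71 in livers) and KO tumours were low (0.81 to 2.60). Akr1c14, Akr1c19 and Akr1c20 fell by 3.17, 2.82 and 2.33. Akr1c21 and Akr1e1 did not pass (-0.72, limma adjusted p 0.39, and -0.57, limma adjusted p 0.13).

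Liver enzymes elsewhere on the chromosome were lower in KO than in DEN tumours in most cases, as were 37.5% of all genes. The mean level of hepatocyte markers was also lower in KO tumours (1.09 to 4.27 against 5.79 to 6.89) and that of bile duct markers higher (0.35 to 3.29 against -2.20 to 0.10), and their part in these differences was not tested. All 3 betaine and choline enzymes fell. Bhmt, which remethylates homocysteine from betaine, had levels of 2.21, 5.45, 4.02, 6.22, 5.44 and 6.04 in KO tumours and 4.65 to 7.44 in DEN tumours, so the groups overlapped. Its difference was -1.998 ± 0.57 (limma adjusted p 0.0067), which ended with slide as a random block (adjusted p 0.094) and with normexp and quantile scaling (0.051). Bhmt2 and Dmgdh, which oxidises dimethylglycine, fell by 3.47 and 2.70 without overlap. Fbp1 was 2.32 to 5.30 in KO tumours and 7.08 to 8.82 in DEN tumours, a fall of 3.60 ± 0.37 (limma adjusted p 1.9e-06). It was the 1 member of 4 glucose and fructose enzymes that passed. In the list of other metabolic enzymes and transporters 12 of 16 fell and 1 rose (median -1.58). All 4 measured phosphate and urate transporters of the Slc17a cluster fell, by 3.45 (Slc17a1), 2.73 (Slc17a2), 3.68 (Slc17a3) and 2.71 (Slc17a4). Elovl2, which elongates polyunsaturated fatty acids, fell by 3.72 and the thiopurine methyltransferase gene Tpmt by 3.08.

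Among sterol synthesis genes, Idi1, the isopentenyl diphosphate isomerase, was 2.42 to 2.99 in KO tumours and 4.31 to 5.88 in DEN tumours, a difference of -2.35 ± 0.27 (limma adjusted p 5.1e-06). KO tumours were alike in Idi1 and lay outside the range of every other group. Idi2 had a difference of -0.57 ± 0.51 (limma adjusted p 0.35). The probes of Hmgcs1 carry no chromosome 13 coordinate in the array files, so that gene was not a member.

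**Figure D5:**
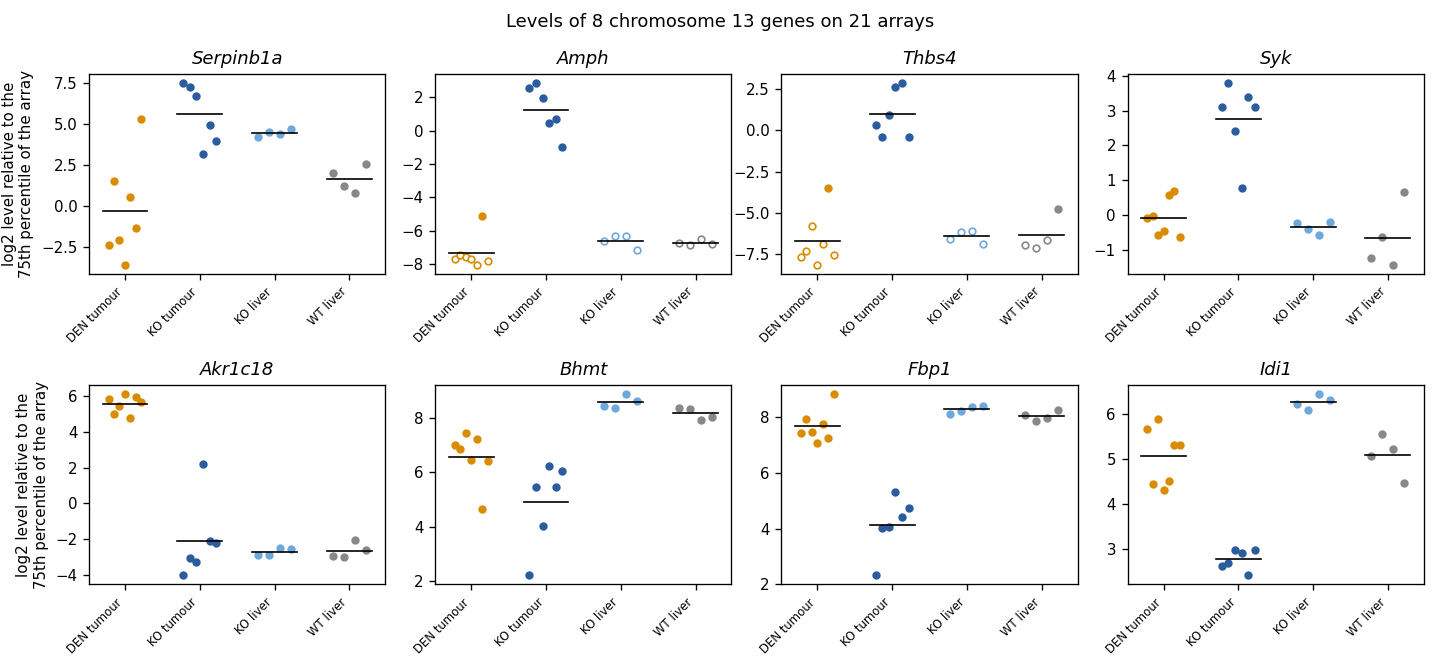
Log2 levels of 8 chromosome 13 genes above each array's 75th percentile (vertical axes), on 21 arrays, by group, with filled points well above background, open points not, and bars at the mean of the arrays. Akr1c18 is high in the 7 DEN tumours, and Idi1 is lowest in the 6 KO tumours, at 2.42 to 2.99.

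Of 22 cell cycle, replication and repair genes, 5 rose and 7 fell, with a median of -0.19. Of all genes 19.9% rose and 37.5% fell, with a median of -0.33. Centromere and mitosis genes were among the higher ones, namely Cenph (2.08), Depdc1b (2.31), Cenpk (0.89), the mitotic cyclin Ccnb1 (1.66 ± 0.46, limma adjusted p 0.0057) and the kinesin Kif2a (0.68), for which other probes gave the opposite sign. With slide as a random block the calls of Ccnb1 (adjusted p 0.12) and Cenph (0.062) ended, and that of Ccnb1 also with scan day as a block (0.053). Lower were Cdk7 (-1.25) and its partner cyclin Ccnh (-0.74). Cks2, a cyclin-dependent kinase subunit, differed by -0.11 ± 0.36 (limma adjusted p 0.81). Of 33 histone genes 9 rose and 13 fell, beside the same shares of all genes. H1f5 and H2ac11 rose by 1.87 and 1.46, calls that ended with slide as a random block (adjusted p 0.059 and 0.086), and H2bc14 and H3c11 fell by 1.503 and 1.27, the latter call ending with normexp and quantile scaling (0.11).

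Among signalling and tumour-related genes 10 of 29 rose and 6 fell (median -0.06), beside 19.9% and 37.5% of all genes. Syk rose by 2.79 ± 0.46 (limma adjusted p 0.00011), with KO tumour 4, at 0.78, just above the highest DEN tumour at 0.68. Irf4, a lymphocyte transcription factor, rose by 3.06, Gas1 by 2.64, the transcription factors Foxc1 and Sox4 by 2.53 and 1.82, and Pik3r1 by 1.55 ± 0.44 (limma adjusted p 0.0065), whose call ended with slide as a random block (0.054). Fst, the secreted antagonist of activin, fell by 2.76 ± 0.42, with levels of 1.56 to 4.18 in the DEN group and -0.84 to 0.18 in the KO group, and Inhba, an activin subunit, fell by 1.34. The Golgi protein gene Golm1, a serum marker of liver cancer, had levels of 2.46 to 4.39 in KO tumours and 2.53 to 4.25 in DEN tumours (-0.17 ± 0.35, limma adjusted p 0.70), above the -1.60 to -0.35 of livers. Fgfr4, the receptor for the bile acid hormone FGF15, was 1.54 to 3.5001 against 1.90 to 3.38 (-0.38 ± 0.30, limma adjusted p 0.29). Ptch1, the Hedgehog receptor, differed by -0.22 ± 0.26 (limma adjusted p 0.48), and by -0.80 within the scan day that both groups share (adjusted p 0.012).

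Of 11 matrix and adhesion genes 2 rose and 4 fell, beside 19.9% and 37.5% of all genes. Tgfbi, a matrix protein induced by TGF-beta, rose by 1.51, and the tight junction gene Ocln fell by 1.98. Vcan and Map1b fell by 1.69 and 2.42 at the probes with the highest signal, and another probe of each gave 4.36 and 2.39, so that their direction depends on the probe. The protease gene Ctsl fell by 1.35 ± 0.19 and Esm1, a proteoglycan of endothelial cells, by 3.49, while granzyme Gzma differed by -0.47 (limma adjusted p 0.71).

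The largest falls outside these lists were mostly at probes of low signal. They were those of AU017674, Olfr1370, Olfr1535, AU015723, C430039J16Rik and a probe with no gene name in the files (A_55_P2019098), with Vmn1r192 the brightest among them (0.79 to 2.54 in DEN tumours). Olfr1370, an olfactory receptor gene, was -3.83 to -1.93 in DEN tumours, -3.99 to -2.73 in livers and -8.44 to -6.35 in KO tumours. No KO tumour array was above background, so on this scale Olfr1370 was at least 13.3-fold lower in KO than in DEN tumours. AU017674 was at least 22.7-fold lower by the same bound, which sets the mean of the bright group against the lowest signal well above background on each array of the dim group. With normexp and quantile scaling the log2 differences of these 2 shrank from -5.07 to -1.17 and from -5.86 to -2.07.

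Of the 12 leading genes of the stretches, Fbp1 included, 8 were lower in KO than in DEN tumours, 0 were higher and 4 did not pass. Of all genes 37.5% were lower and 19.9% higher. The stretches were picked from values of the same KO tumours, so this count is a description. In the 30 to 60 Mb stretch Ninj1 and Tubb2a were lower in KO than in DEN tumours by 1.10 and 1.93, Tmed9 by 0.73, a difference that lost its call under normexp and quantile scaling (adjusted p 0.84), while Eci2 differed by 0.05 ± 0.31 (limma adjusted p 0.90). Within the shared scan day Tubb2a differed by -1.26 (adjusted p 0.082) and Tmed9 by -0.65 (0.074), and neither passed. In the other stretches Srek1, Mocs2, Ctsl and Ndufs6 fell by 2.32, 1.22, 1.35 and 0.96, the last call ending with the same scaling (adjusted p 0.19). Rpl34-ps2, Naip5 and Gm7065 differed by -0.13, -0.26 and -0.10 and did not pass. Within the shared scan day Naip5 passed (-0.45, adjusted p 0.025), and with normexp and quantile scaling Rpl34-ps2 and Gm7065 passed in the other direction (0.62 and 0.55).

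Livers of knockout and wild-type mice were compared because they took no part in choosing the tumour shifts beyond the shared mean of the 8 livers. Of 892 genes 17 were higher and 56 lower in KO livers, against 1.83% and 6.66% of all genes (1.91% and 6.28% of chromosome 13). Normexp and quantile scaling gave 26 and 40. With slide as a random block limma gave 0 and 0, with 59 genes at an unadjusted p under 0.05, and the adjusted p of Serpinb1c, 2310081J21Rik, Zfp456, Omd, Gm9979, Gpx6 and C78704, described next, was 0.215 to 0.894. With 1 mouse left out the counts ran from 4 (without KO liver 2) to 26 (without KO tumour mouse 4) higher and from 21 (without WT liver 3) to 65 lower. KO livers lay on 1 slide and scan day and WT livers on another, so genotype and slide cannot be told apart here. No chromosome 13 window of any KO liver was 0.3 or more from the other livers, and 1 window of 1 WT liver was.

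Idi1 differed in KO livers in the direction opposite to KO tumours. It was 6.07 to 6.43 against 4.47 to 5.56 (1.18 ± 0.31, limma adjusted p 0.026). Serpinb1c rose by 3.35 ± 0.86 (limma adjusted p 0.024), and Serpinb1a, at 4.22 to 4.70 against 0.82 to 2.59, differed by 2.79 ± 1.01 without passing (limma adjusted p 0.10). Zfp456 and 2310081J21Rik were higher by 1.44 and 1.80, the second with another probe at -4.64. Omd, a matrix proteoglycan, was -1.52 to -1.08 in WT livers and above background on no KO liver array, at least 10.4-fold lower on this scale, with a log2 difference of -4.85 that shrank to -2.01 with normexp and quantile scaling. Gm9979 and C78704 fell by 3.31 and 3.07. Gpx6 fell by 3.13 ± 0.94 (limma adjusted p 0.048), a call lost in 12 of the fits with 1 mouse left out (adjusted p 0.0504 to 0.151), and that of Serpinb1c was lost without any 1 KO liver or WT liver 3 (adjusted p 0.0529 to 0.0947). Of the listed genes Ccnb1 and F2r, the thrombin receptor, were also lower in KO livers (by 1.75 and 1.52), and Ptch1 was higher (by 1.12).

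For tumours against their own livers, the contrast that chose the shifts, 146 genes were higher and 300 lower in KO tumours than in KO livers (21.6% and 29.6% of all genes), with 191 and 249 under normexp and quantile scaling. In DEN tumours against WT livers 90 were higher and 108 lower (10.6% and 11% of all genes). With slide as a random block the counts were 80 and 169 for KO and 18 and 8 for DEN tumours. These counts are a description.

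Nnt, the mitochondrial transhydrogenase, is known as a gene with a deletion of several exons in C57BL/6J mice. The first or motif-holding 30 bases of its 3 probes are shown because they did not move together.
Nnt, chr13:120124335-120124394, minus strand: aaccatctgagtAATAAAtgagttcataaa
Nnt, chr13:120123318-120123377, minus strand: gagacatttttgggtttcagaactggcaga
Nnt, chr13:120142585-120142644, minus strand: ggagggaccaacattgttctgatgtggagg
The first was above background on 21 arrays and stands for the gene. Its levels were 1.64 to 3.46 in DEN tumours and 1.32 to 2.56 in KO tumours, a difference of -0.80 ± 0.35 (limma adjusted p 0.061), and -1.32 within the shared scan day (adjusted p 0.0096). It passed also without DEN tumour mouse 2 (-1.04), KO tumour mouse 5 (-0.97) or WT liver 2 (-0.80). In livers it was 2.67 to 4.07. The second probe was above background in 4 tumours, DEN tumours 4, 5, 6 and 7, with levels of -4.32, -5.08, -4.67 and -4.45. These are the 4 tumours of DEN tumour mice 4 and 5, spread over both scan days. On the other 17 arrays it lay between -8.94 and -6.03 and was above background on none. The third was above background on 4 arrays, those of DEN tumours 1 and 6 and of KO tumours 1 and 2.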

How the data were processed

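Mouse liver and tumour RNA labelled with Cy3 was read on 21 one-colour arrays. Per the file headers and the submitters' processing notes, the authors read the scans with version 10.7.3.1 of Agilent Feature Extraction, and the deposited processed intensity is corrected for background. The authors' deposited table is in log2 units. Outlier spots (122 to 472 on an array) were left out, log2 intensities were scaled to each array's 75th percentile, and tumours of 1 mouse were averaged, which left 18 mice. The fits with slide or scan day as a block, and that with each tumour as its own sample, used the 21 arrays without averaging. The number before the T in a title was read as the mouse. A single limma model of 4 groups was fitted over 23526 genes (R 4.3.3, limma 3.58.1), each represented by its brightest probe, and tested on simulated data. Of the 1145 members, 793 were named by accession, 3 by another accession of the file, 108 by symbol and 13 by an older symbol through a RefSeq table (GRCm38.p6, names only), and 228 keep the file's name. Coordinates are mm9. Named genes were the 8 highest and 8 lowest changes between tumour groups and 4 and 4 between livers, among genes past the threshold that did not overlap and were above background in the higher group, plus the leading genes of stretches, up to 2 per direction from each list, and fixed genes. The members, lists and rules were chosen with earlier results of these data known. The number of arrays limits the precision. Alternatives changed the background correction, scaling, filter, window size, centring, slide or scan day block and the mice included, and the closing section gives their effect. A few genes are not reported here.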

Additional observations from a re-analysis of the deposited data

Results flagged for a closer look

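Chance flags about 1 in 20 groups for an outlying sample, and 14 of 324 groups checked were flagged. Among the chromosome 13 windows, KO tumour 4 lay far below the other 5 KO tumours from 30 to 40 Mb (-0.28) and from 50 to 60 Mb (-0.65). WT liver 4 was far below the other WT livers from 10 to 20 Mb (-0.043) and WT liver 1 from 40 to 50 Mb (-0.14). Among the named genes, KO tumour 4 was far above the other KO tumours for Akr1c18 (2.20) and Olfr1370 (-6.35), the second without being above background. DEN tumour 6 stood apart for Amph (-5.13, high) and Bhmt (4.65, low), DEN tumour 2 for Akr1c12 (2.83, low) and DEN tumour 5 for Dmgdh (4.25, high). WT liver 1 was high for Rpl34-ps2 (6.57) and Slc17a1 (2.31), WT liver 3 was low for Kif2a (-0.84), and KO liver 2 was high for H1f5 (-3.27).

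The signed log2 change from liver to tumour was higher in KO than in DEN for 81 chromosome 13 genes and lower for 179. These counts are by limma's test of the difference itself (12.7% and 18.3% of all genes). A lower value can be a larger fall or a smaller rise. With slide as a random block these counts were 5 and 28.

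Outside the probes that stand for genes, Nnt gave a signal above background on 4 arrays at 1 probe, all of them DEN tumours of mice 4 and 5, and on 4 tumour arrays at another probe. No liver array was above background at either.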

How the results depend on the processing

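No paired analysis was possible because no label ties a mouse of one group to a mouse of another. Scan day as a block could not be fitted for KO against WT livers or DEN tumours against WT livers, which share no day. With slide as a random block the counts of chromosome 13 genes fell to 87 higher and 262 lower for KO against DEN tumours. They fell to 80 and 169 for KO tumours against KO livers and to 18 and 8 for DEN tumours against WT livers. Between livers they fell to 0 and 0 (limma, 59 at an unadjusted p under 0.05). Only probes above background on all arrays left 77 and 216 between tumours, 74 higher in KO tumours than KO livers and 13 lower in KO livers, with fewer genes tested. No filter gave 532 lower in KO tumours than KO livers. KO livers had 26 higher with normexp and quantile scaling and 36 without the brightest KO tumour slide.

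Leaving out 1 mouse gave 130 to 171 higher and 329 to 356 lower between tumours, 124 to 174 and 263 to 303 for KO tumours against KO livers, and 62 to 104 and 77 to 125 for DEN tumours against WT livers. Between livers it gave 4 (without KO liver 2) to 26 (without KO tumour mouse 4) higher and 21 (without WT liver 3) to 65 lower. The liver counts dropped by over 1.5 times without any of KO livers 1 to 4 or WT livers 3 and 4.

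Windows past 0.3 against livers were 3.55% lower and 0.592% higher with normexp and quantile scaling, 4.49% higher with 1 probe per gene, 10.8% higher with 5 Mb windows and 30.2% lower without centring. Against the own group they were 0.592% lower and 0% higher with that scaling, 6.77% higher in 5 Mb and 2.20% in 20 Mb windows, and 0% higher with centring within GC bins. Leaving out reference livers gave 16.6% to 18.9% lower and 7.10% to 8.28% higher. Leaving out reference tumour mice gave 5.33% to 8.88% lower and 2.96% to 6.51% higher, the last without KO tumour mouse 5. KO tumour 4 gave -0.14 with normexp and quantile scaling, and -0.43 to -0.32 over the reference mice left out. KO tumours 5 and 6 gave 0.13 and 0.16 with that scaling, 0.058 and 0.13 without centring, 0.22 (KO tumour 6) within GC bins, and 0.30 to 0.40 and 0.31 to 0.43 over the reference mice. The causes were not tested. The comparison by slide, the GC bins and the shared scan day were chosen after seeing the data.

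Signs turned in genes that had not passed between tumours. With normexp and quantile scaling Rpl34-ps2 (0.62), Gm7065 (0.55), Naip5 (0.22), Golm1 (0.23) and Ptch1 (0.0021) were above 0, the first pair past the threshold. With slide as a random block Eci2 was -0.21 and Cks2 0.016, and with each tumour as its own sample -0.20 and 0.015. Without the brightest KO tumour slide Rpl34-ps2 was 0.12, Gm7065 0.095, Golm1 0.35 and Fgfr4 0.061. With scan day as a block or within the shared day Golm1 was 0.48 and Fgfr4 0.11. With 1 mouse left out, Eci2 ran from -0.17 to 0.27, Rpl34-ps2 from -0.24 to 0.0091, Gm7065 up to 0.014, Cks2 from -0.29 to 0.16 and Golm1 from -0.40 to 0.054, with the values above 0 of Rpl34-ps2, Gm7065 and Golm1 without KO tumour mouse 5.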

Other observations

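Tert, the catalytic subunit of telomerase, lies on chromosome 13 (73786429 to 73786488, mm9) and was singled out after its values were seen. Its levels were -1.35, -0.54, -0.32 and -1.03 in DEN tumours 2, 3, 4 and 6, scanned on one day, and -2.87, -2.78 and -2.51 in DEN tumours 1, 5 and 7, scanned on another. The 2 sets did not overlap, and they split both DEN tumour mice that gave several tumours. KO tumours had levels of -4.28 to -3.17, KO livers -2.87 to -2.43 and WT livers -1.56 to -0.78. All 21 arrays were above background at this probe. The part of the scan day in these levels was not tested.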
